A study of Mus musculus with 4 samples.

Results

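Of 5417 autosomal c-Myc peaks found by chromatin immunoprecipitation and sequencing (ChIP-seq) in mouse pancreas, 769 lay more than 50 kb from every Ptf1a peak, or 14.2% (13.3 to 15.2%, 95% Wilson interval). These 769 Myc peaks were chosen by position alone: distances ran from the edge of a Myc peak to the edge of the nearest of 17423 autosomal Ptf1a peaks, and chromosome X was left out. Both libraries came from pancreas of 8-week-old Ela1-myc mice, in which the promoter of elastase 1, a digestive enzyme gene of acinar cells, drives a Myc transgene. Chromatin of 1 mouse gave the Ptf1a library, and pooled chromatin of 3 mice, precipitated with the N262 antibody, gave the c-Myc library. Each had an input library, from 5 mice for Ptf1a and 3 mice for c-Myc, that was not analysed here. All mice carried the transgene, so no group without it was compared. The labels do not separate transgenic from endogenous c-Myc, and whole pancreas holds cells other than acinar cells. A site occupied in few cells and a site weakly occupied in many cannot be told apart.

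Ptf1a is a basic helix-loop-helix factor that binds DNA with an E protein and with Rbpj or Rbpjl, as the PTF1 complex, and keeps digestive enzyme genes active in acinar cells. c-Myc belongs to the same structural family, binds E-box sequences together with Max, and is known for driving ribosome production, metabolism and cell division genes in many cell types. Both factors recognise E-boxes, so their sites can coincide, and a Myc peak far from any Ptf1a peak is a place where only 1 of the 2 related factors was listed. The series title concerns the fall of c-Myc as pre-acinar cells mature, and the comparison here is how the distant Myc sites relate to the rest of the Myc list.

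The distant Myc peaks were spread over all 19 autosomes and mostly stood alone. Their median distance to Ptf1a was 94.0 kb (quartiles 67.3 and 158.6 kb). A distance over 100 kb was reached by 350 of them (45.5%), over 200 kb by 129 (16.8%), over 500 kb by 25 and over 1000 kb by 8. The distances form a continuous range, and nothing in the list sets the 50 kb limit apart. Just inside it lay peaks on chromosome 9 at 15134717 to 15135527 (50052 bp from Ptf1a, score 74.13), on chromosome 9 at 53344295 to 53345206 (50203 bp, score 62.46) and on chromosome 1 at 39818548 to 39819544 (50209 bp, score 119.0). Just outside it lay peaks on chromosome 13 at 52348447 to 52349035 (49993 bp, score 73.05) and at 60448969 to 60449828 (49938 bp, score 174.82), and on chromosome 1 at 182260222 to 182261006 (49887 bp, score 57.73). The scores of these neighbours of the limit overlap. All positions are on mm9, counted from 1, and the score is the authors' own value for each peak.

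**Figure D1:**
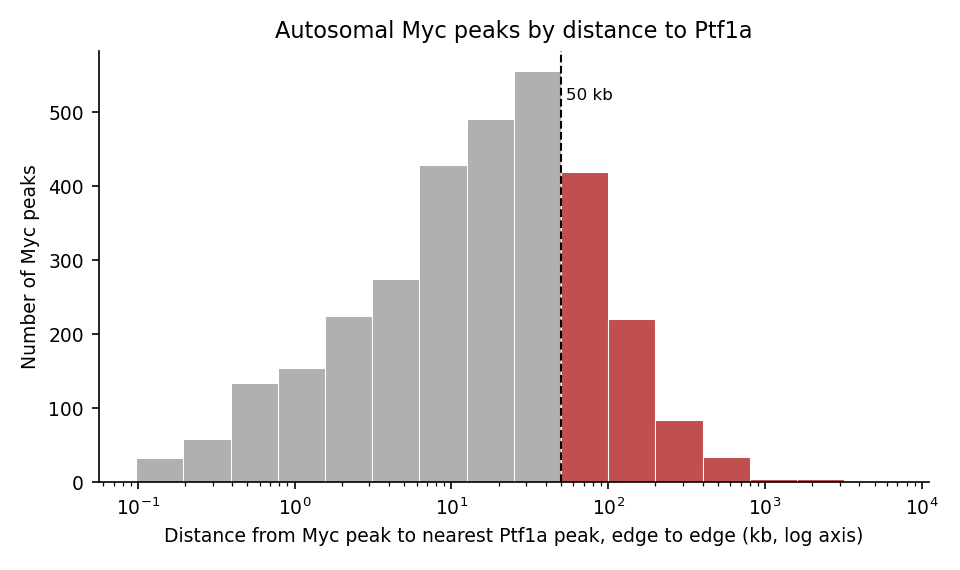
Number of autosomal Myc peaks (y axis) by edge-to-edge distance to the nearest Ptf1a peak in kb (x axis, log scale, each bar spanning a doubling). Red bars are the 769 peaks beyond 50 kb and grey bars nearer peaks; 2255 peaks that touch or overlap a Ptf1a peak and 38 closer than 0.098 kb are not drawn. The bar from 25 to 50 kb is the tallest with 555 peaks, and the first red bar holds 419.

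Myc peaks became sparser as the distance from Ptf1a grew. Each number was set against the length of sequence at that distance, between the first and last peak of either list on each autosome. Sequence more than 50 kb from Ptf1a made up 1648.6 of 2396.2 Mb (68.8%) and held 0.466 Myc peaks per Mb (95% exact Poisson interval 0.434 to 0.501). In stretches between Ptf1a peaks of up to 1000 kb alone the value was 0.899 (0.831 to 0.972). Sequence up to 50 kb from a Ptf1a peak, overlaps not counted, held 3.24 per Mb (3.11 to 3.37). At 25 to 50 kb there were 2.12 Myc peaks per Mb (1.95 to 2.31), at 50 to 100 kb 1.31 (1.19 to 1.44), at 100 to 200 kb 0.629 (0.549 to 0.718) and at 200 to 500 kb 0.223 (0.183 to 0.271). Beyond 1000 kb, 8 peaks in 222.1 Mb gave 0.036 per Mb (0.0156 to 0.071). From 25 kb outward the intervals of neighbouring bands did not overlap up to 1000 kb. The intervals cover counting error only, and there is no test, because each factor had 1 library.

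Myc peaks with a score of 100 or more also became sparser with distance. They numbered 0.592 per Mb at 25 to 50 kb, 0.337 at 50 to 100 kb, 0.122 at 100 to 200 kb and 0.0752 at 200 to 500 kb. At 500 to 1000 kb 2 such peaks gave 0.0069 per Mb. Their share of the Myc peaks was 27.93% (24.36 to 31.8%) at 25 to 50 kb and 25.78% (21.82 to 30.17%) at 50 to 100 kb. It was 19.46% (14.78 to 25.18%) at 100 to 200 kb and 33.65% (25.3 to 43.17%) at 200 to 500 kb. For the 25 peaks beyond 500 kb it was 8.0% (2.22 to 24.97%), so the share had no steady order with distance. The background share over all autosomal Myc peaks was 28.7%. Beyond 1000 kb there was none in 222.1 Mb. A fixed upper limit of 3 peaks was taken for a count of 0, not the exact Poisson interval used for the densities. Assembly gaps, which hold no peaks, were not removed from the lengths, and gene density was not measured.

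**Figure D2:**
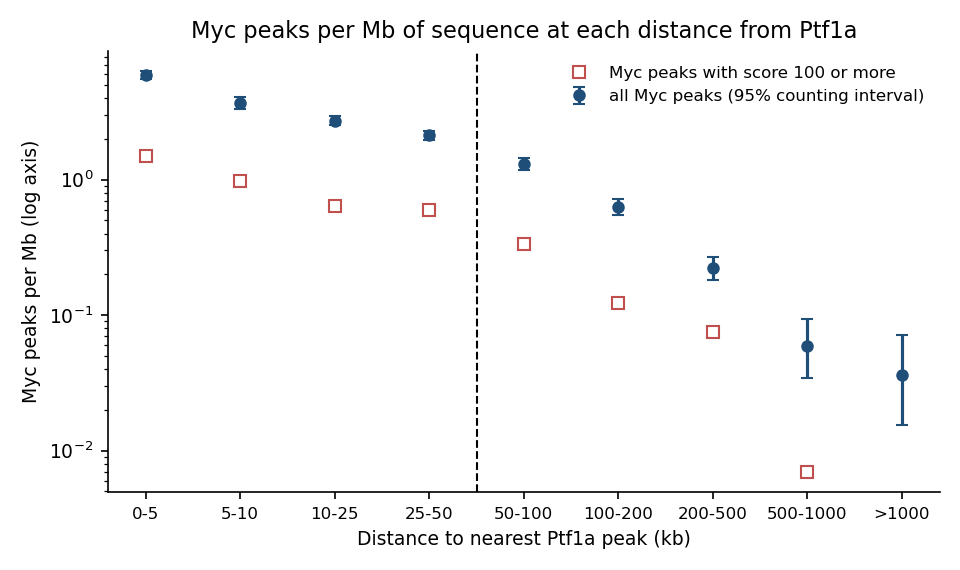
Myc peaks per Mb (y axis, log scale) against distance to the nearest Ptf1a peak in kb (x axis, 9 bands). Filled circles are all Myc peaks with 95% Poisson intervals and open squares those with a score of 100 or more (none beyond 1000 kb); the dashed line marks 50 kb. The circles fall from 5.94 per Mb within 5 kb to 0.036 beyond 1000 kb.

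Neighbouring Ptf1a peaks on a chromosome left 17404 free stretches between them, of which 4257 were longer than 100 kb and could hold a distant Myc peak. A distant Myc peak was present in 586 of the 4257 (13.8%, 12.8 to 14.8%), and 3000 of them held no Myc peak wholly inside. Myc peaks that overlap a Ptf1a peak at the edge of a stretch were not counted in it. Together these 586 stretches held 759 of the 769 peaks. The other 10 lay in 9 stretches beyond the first or the last Ptf1a peak of a chromosome. Stretches with a distant Myc peak had a median length of 357.4 kb (quartiles 203.5 and 699.2 kb), against 221.4 kb for those over 100 kb without one. A longer stretch offers more sequence, so part of this difference lies in the rule.

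Set against that length, the longest stretches were the emptiest. Stretches of 100 to 200 kb held 2.11 distant Myc peaks per Mb of sequence beyond 50 kb, those of 200 to 500 kb 1.07, those of 500 to 1000 kb 0.473 and those over 1000 kb 0.133. The outer 50 kb on each side of the same stretches held 3.06, 2.32, 1.89 and 1.77 Myc peaks per Mb, overlaps with Ptf1a not counted. Within stretches of each length class the outer parts were therefore the denser ones, and the contrast was smallest in the shortest class.

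The Ptf1a peaks that bound these stretches had lower scores than the Ptf1a list as a whole. The 1138 Ptf1a peaks on either side of a distant Myc peak had a median score of 98.6 (exact binomial interval of the median 93.2 to 103). The median was 116 (114 to 118) over all autosomal Ptf1a peaks and 109 (106 to 112) over the 6093 Ptf1a peaks at the edges of stretches over 100 kb without a distant Myc peak. Each Ptf1a peak was counted once in each set, and a peak that edges a stretch of either kind is in both. Of the 1138, 559 scored at least 100 (49.1%, 46.2 to 52.0%), where the background share over the Ptf1a list was 56.7%. When only Ptf1a peaks with a score of 100 or more were kept, 1575 Myc peaks (29.1%) were more than 50 kb from the nearest, so many Myc sites outside the 769 have only low-scoring Ptf1a peaks nearby.

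Distant Myc peaks had scores close to those of the Myc peaks beside Ptf1a and lower than those of the Myc peaks on Ptf1a. Their median score was 72.9 (69.5 to 75.3), with quartiles of 58.9 and 99.5 and a range from 50.05 to 603.43. Over all autosomal Myc peaks the median was 75.2 (73.8 to 76.1). The 2255 Myc peaks that touch or overlap a Ptf1a peak had a median of 79.9 (77.5 to 81.4), and the 2393 peaks at 1 bp to 50 kb had 71.3 (69.8 to 73.0). Thus the interval of the distant peaks overlapped that of the peaks beside Ptf1a and lay below that of the peaks on Ptf1a.

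A score of 100 or more was found for 188 of the 769 (24.4%, 21.5 to 27.6%), where 28.7% of all autosomal Myc peaks reached it. The share was 25.6% (23.9 to 27.4%) beside Ptf1a and 33.5% (31.6 to 35.5%) on Ptf1a. A score of 200 or more was found for 41 of the 769 (5.33%, 3.95 to 7.15%), near the background of 5.06%. It was 4.18% (3.45 to 5.06%) beside Ptf1a and 5.90% (5.00 to 6.95%) on Ptf1a, and both intervals overlap that of the distant peaks. Scores under 60, close to the lowest score of 50.0 in the list, were found for 211 (27.4%, 24.4 to 30.7%), where the background was 26.0%.

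Scores did not fall evenly with distance. The median was 75.2 (71.5 to 78.7) at 50 to 100 kb, 66.6 (63.2 to 73.6) at 100 to 200 kb and 74.4 (67.2 to 91.7) at 200 to 500 kb. These 3 intervals overlap. The 25 peaks beyond 500 kb had a median of 58.5 (54.4 to 68.6), 13 of them scored under 60, and 2 reached 100. The highest of the 25 scored 248.73.

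**Figure D3:**
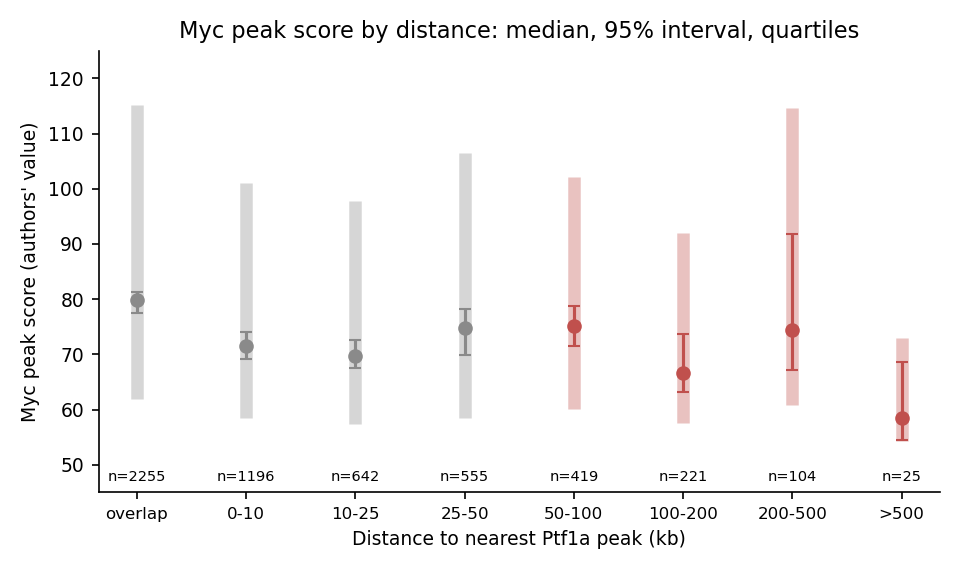
Score of Myc peaks (y axis, the authors' value) by distance to the nearest Ptf1a peak in kb (x axis). Points are medians with exact binomial 95% intervals, pale bars run from the lower to the upper quartile, red marks the distant peaks, and n is the number of peaks. The median is highest for overlapping peaks (79.9) and lowest beyond 500 kb (58.5, 25 peaks).

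Distant Myc peaks were about as wide as the list in general. Their median width was 830 bp (812 to 852 bp), against 834 bp over all autosomal Myc peaks, 811 bp (799 to 823 bp) beside Ptf1a and 860 bp (851 to 870 bp) on Ptf1a. A width of 1000 bp or more was found for 151 of the 769 (19.6%, 17.0 to 22.6%), where the background was 21.2%. Wider peaks scored higher in each group, with Spearman's rho of 0.633 across the distant peaks, 0.619 beside Ptf1a and 0.595 on Ptf1a. These values are across peaks of 1 library and describe the list. With the Myc list divided by width into 5 equal parts, the widest part (1011 bp or more) had a median score of 133 (115 to 153) for distant peaks, 127 (121.5 to 134.5) beside Ptf1a and 131 (124.8 to 136.9) on Ptf1a. In the narrowest part it was 57.6 (55.7 to 59.4), 57.0 (55.7 to 57.9) and 58.9 (57.8 to 61.1). In each of the 5 parts by width the intervals of the 3 groups overlapped.

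The highest-scoring distant Myc peaks ranked among the highest-scoring of the whole list. Of the 10 highest-scoring autosomal Myc peaks 3 were distant ones, and of the 25 highest 6 (24.0%, 11.5 to 43.4%). Of the 100 highest 13 were distant (13.0%, 7.76 to 21.0%), close to the 14.2% of the whole list. In 10 equal parts of the list by score the share of distant peaks lay between 11.3 and 16.8%, with no steady order.

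The top-scoring distant peak was found on chromosome 3, at 88099959 to 88101755. It scored 603.43, was 1797 bp wide and ranked 3 in the list. Its Ptf1a-free stretch spanned 197.8 kb, with Ptf1a peaks 117.7 kb to the left (score 74.97) and 78.3 kb to the right (score 65.92). Both neighbours were thus low-scoring Ptf1a peaks, and another Myc peak lay 37.3 kb away.

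The next distant peak, on chromosome 10 at 76495487 to 76497127 (score 536.68, rank 7), had a high-scoring Ptf1a neighbour. That Ptf1a peak, at 76592725 to 76593523, scored 1326.69 and lay 95.6 kb away. The Ptf1a peak on the left side scored 143.69 and was 480.6 kb away. The third, on chromosome 3 at 137805938 to 137807507 (score 521.0, rank 8), lay 85.8 and 161.4 kb from Ptf1a peaks scoring 150.94 and 80.59. These 3 sites stood alone, with no other Myc peak closer than 37.3 kb.

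On chromosome 2 the Myc peak at 130099066 to 130102009 was the widest of the 10 highest-scoring distant peaks. It was 2944 bp wide, scored 480.15 (rank 11) and lay in a stretch of 1334.4 kb without Ptf1a, 359.4 kb from the nearer edge. The nearest other Myc peak was 463.6 kb away. The peak on chromosome 10 at 79316413 to 79317531 (score 463.65, rank 14) lay nearly midway in a much shorter stretch of 144.5 kb, 73.0 and 70.4 kb from its edges. High-scoring distant peaks were therefore found both in long and in short Ptf1a-free stretches.

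The sixth, on chromosome 18, scored 420.79 (rank 25) at 139.3 kb from Ptf1a. After it came a step down in score to 330.22 for a peak on chromosome 14 at 76617322 to 76618201 (67.2 kb from Ptf1a, 880 bp wide). On chromosome 19 a peak at 10508891 to 10509901 scored 318.54 at 110.7 kb. On chromosome 4 a peak at 46465054 to 46466088 scored 304.35 and lay 486.0 and 840.4 kb from its Ptf1a neighbours, the largest distance among the 10. The last of the 10, on chromosome 1 at 88254644 to 88255810, scored 285.1 and belonged to a group of Myc peaks described below.

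The 5 Myc peaks farthest from Ptf1a scored between 58.47 and 85.03, on both sides of the median of the list. The largest distance, 3425.4 kb, belonged to a peak on chromosome 17 at 95148663 to 95149611 (score 85.03), which lay beyond the last Ptf1a peak of that chromosome. A peak on chromosome 13 at 120196657 to 120197432 (1820.2 kb, score 58.47) also lay beyond the last Ptf1a peak. The others stood between Ptf1a peaks. The peak on chromosome 7 at 48754832 to 48755753 (2064.2 kb, score 68.17) lay in the longest of all Ptf1a-free stretches on the autosomes, 11815.4 kb, which held 1 further distant Myc peak at 50568474 to 50569232 (score 120.21). On chromosome 4 the peaks at 21774566 to 21775524 (1796.1 kb, score 79.5) and 21703898 to 21704722 (1725.5 kb, score 68.59) shared a stretch of 8519.7 kb. A peak at 21653800 to 21654760 (score 63.37) stood with them, 49.1 kb from the nearer one. These 3 Myc peaks thus lay in the same region of several Mb that had no Ptf1a peak, each without another Myc peak within 12500 bp.

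Most distant Myc peaks had no other Myc peak close by, and this share rose with distance already within 50 kb of Ptf1a. No other Myc peak lay within 12500 bp of 671 of them (87.3%, 84.7 to 89.4%), where the background over all autosomal Myc peaks was 69.1%. The share was 66.7% (64.7 to 68.6%) on Ptf1a, 54.2% (51.4 to 57.0%) at up to 10 kb, 73.1% (69.5 to 76.3%) at 10 to 25 kb and 81.4% (78.0 to 84.5%) at 25 to 50 kb. It was 85.2% (81.5 to 88.3%) at 50 to 100 kb, with an interval that overlaps that of the band before it. The median distance to the nearest other Myc peak was 99.7 kb for distant peaks and 35.3 kb for the whole list. Myc peaks were sparser in the sequence these peaks lie in, as given above, and how far that alone sets the share was not tested. Joined at gaps of at most 12500 bp, the distant peaks made 38 pairs, 5 groups of 3 and 1 group of 4. In 19 of the 38 pairs the peaks were at most 2 kb apart, and with all Myc peaks at most 1 kb apart merged, 747 distant sites were left.

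The group of 4 lay on chromosome 15 at 76729860 to 76735127, a span of 5268 bp. Its peaks scored 56.81, 103.41, 58.87 and 89.77, and the nearest Ptf1a peak was 56.6 kb away. On chromosome 1 the peak with a score of 285.1 was followed within 6124 bp by peaks scoring 62.72 and 55.34, the first only 0.2 kb from it. On chromosome 17 at 71199002 to 71203072 3 peaks scored 180.12, 152.97 and 71.33 within 4071 bp. These 3 groups had the shortest spans of the 6.

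On chromosome 7 at 52378272 to 52384955, peaks scoring 50.63, 140.55 and 189.66 lay within 6684 bp, and the last was 2031 bp wide. On chromosome 6 at 128373744 to 128388441, peaks scoring 160.61, 76.82 and 51.47 lay within 14698 bp. On chromosome 11 at 84630815 to 84643080, peaks scoring 63.2, 111.9 and 77.27 lay within 12266 bp. Scores thus differed within each group, from 50.63 to 189.66 in the group on chromosome 7.

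Of the 595 Ptf1a-free stretches with a distant Myc peak, 469 held 1, 91 held 2, 25 held 3, 7 held 4 and 3 held 5. The shortest of those with 5 was on chromosome 16, between Ptf1a peaks at 90082185 to 90082537 (score 50.63) and 90277051 to 90277613 (score 173.67). Its Myc peaks scored 74.14, 78.69, 61.8, 52.95 and 78.71 and lay 61.9 to 137.9 kb from the left edge of a stretch of 194.5 kb. None reached a score of 100, and the Ptf1a peak on the left scored close to the lowest score in its list. The stretch on chromosome 3 at 58100231 to 58592955 (492.7 kb) held Myc peaks scoring 52.94, 59.57, 95.29, 60.01 and 65.48, again all below 100. The stretch on chromosome 7 at 96984399 to 97807194 (822.8 kb) held peaks scoring 123.37, 58.78, 60.89, 105.91 and 67.76, of which the first pair was 0.6 kb apart. None of these 3 stretches held a Myc peak within 50 kb of its Ptf1a edges, overlaps with the edge peaks not counted.

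**Figure D4:**
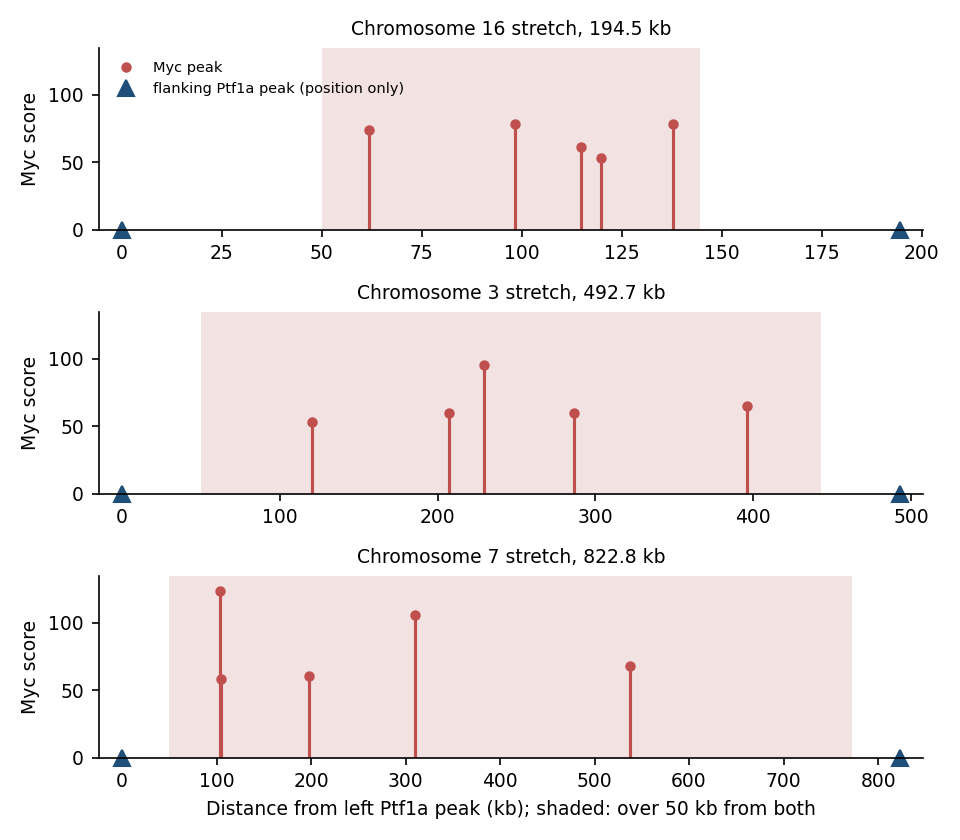
Score of each Myc peak (y axis, the authors' value) along the 3 Ptf1a-free stretches with the most distant Myc peaks (x axis, kb from the left Ptf1a peak). Triangles mark the flanking Ptf1a peaks by position only, and shading marks sequence over 50 kb from both. Each stretch holds 5 Myc peaks, all in the shaded part, with scores from 52.94 to 123.37. Any Myc peak that overlaps a flanking Ptf1a peak is not drawn.

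The share of Myc peaks that were distant differed between autosomes. It was highest on chromosome 16, with 44 of 180 (24.4%, 18.7 to 31.2%), followed by chromosome 1 with 66 of 316 (20.9%, 16.8 to 25.7%), chromosome 14 with 36 of 175 (20.6%, 15.2 to 27.2%) and chromosome 9 with 57 of 282 (20.2%, 15.9 to 25.3%). It was lowest on chromosome 15, with 28 of 277 (10.1%, 7.09 to 14.2%), and chromosome 11, with 49 of 480 (10.2%, 7.81 to 13.2%). The 4 highest intervals lie above the 14.2% of all autosomes and that of chromosome 11 lies below it. The differences between the 19 autosomes were not tested.

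Chromosomes 11 and 19 had the most Ptf1a peaks per Mb, 11.3 on each, and the smallest parts of their sequence more than 50 kb from Ptf1a, 55.1 and 57.8%. Per Mb of that sequence they held 0.752 and 0.716 distant Myc peaks. Chromosome 9 was close to them with 0.730, and chromosome 16 had 0.659. The lowest density was 0.273 per Mb on chromosome 12. The lowest median score of distant Myc peaks was 63.7 on chromosome 16, with 4 of 44 at 100 or more. Close to it were chromosome 9 (65.2, 11 of 57), chromosome 18 (65.2, 8 of 28) and chromosome 3 (65.5, 5 of 39). The highest median was 90.2 on chromosome 10, with 10 of 32 at 100 or more. The share at 100 or more was 24.4% over all distant peaks and 28.7% over all autosomal Myc peaks. Whether scores differ between autosomes was not tested.

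**Figure D5:**
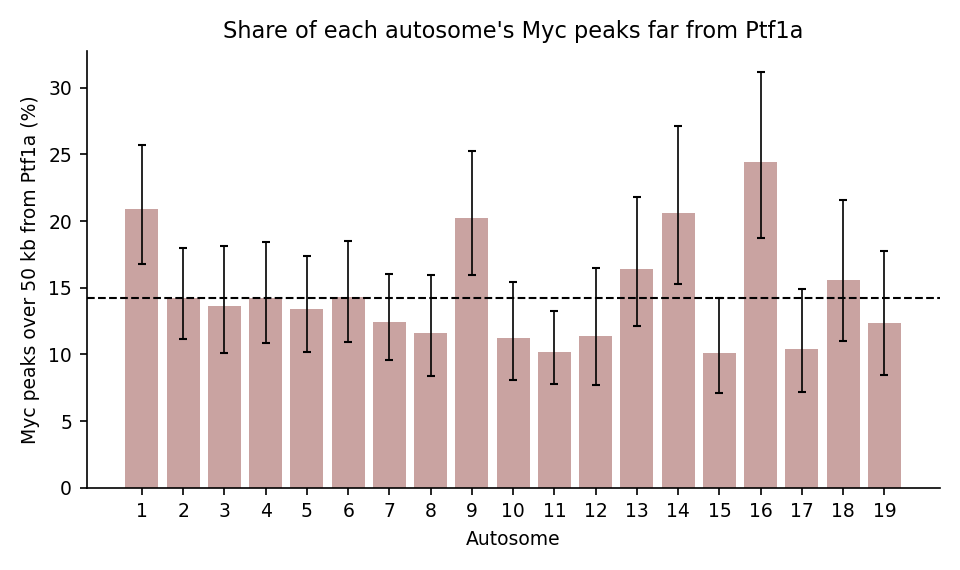
Share of each autosome's Myc peaks that lie more than 50 kb from Ptf1a (y axis, percent, bars from 0) by autosome (x axis). Error bars are 95% Wilson intervals and the dashed line is the 14.2% of all autosomes. Chromosomes 1, 9, 14 and 16 stand above the line with their whole interval and chromosome 11 below it.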

How the data were processed

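The members and the lists compared here were chosen with earlier results of these data known. Per the labels, tissue was fixed in 1% formaldehyde for 20 min and sheared to 300 to 500 bp. The build was mm9, and the tools were MACS 1.4.1, BWA 0.5.9-r16, CASAVA 1.8 and FastQC 0.9.4, per the submitters' processing notes. For their roles, the peak threshold and how inputs were used, nothing is given in the sources used here. The authors deposited 1 peak list per library, with positions in bp and a score per peak whose scale no header states. The lowest autosomal score was 50.0 in the Myc list and it was used within each list only. The sequencing depth is unknown, so a missing Ptf1a peak does not show that Ptf1a was absent.

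Distances, counts, medians and shares were computed with scipy 1.17.1, pandas 2.3.3 and numpy 2.4.6 under Python 3.11.15, and drawn with matplotlib 3.10.9. Shares carry 95% Wilson intervals, medians exact binomial and densities exact Poisson intervals, all for counting error only. Peaks are not replicates, so no test was made. The distance code was tested on simulated data, and 200 of 200 planted distances were recovered. Peaks named are the 10 highest-scoring and 5 farthest, groups of 3 or more within 12500 bp, the 3 stretches with most peaks, and 3 on each side of the 50 kb limit. The score limits of 200 and 60, the width limit of 1000 bp and the stretch length classes were set after the lists were seen. Genes, motifs and sequence were planned and not analysed here, because the genes and promoters given were on GRCm38.p6 and coordinates were not converted.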

Additional observations from a re-analysis of the deposited data

Results flagged for a closer look

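Chromosome X lay outside the autosomal choice and also held Myc peaks far from Ptf1a. Of its 45 Myc peaks, 21 were more than 50 kb from a Ptf1a peak (46.7%, 95% Wilson interval 32.9 to 60.9%). Their median distance was 167.1 kb and their median score 82.7, with a highest score of 404.81. Chromosome X had 199 Ptf1a peaks in all. Its distant Myc peaks were not set against sequence length, so how far the number of Ptf1a peaks alone sets this share was not tested.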

How the results depend on the processing

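Of 30 values under other settings, 16 stayed within the interval of the main value and 14 moved out of it. Many of the settings select other peaks or other sequence, and why values moved was not tested. The share of distant Myc peaks was 24.4% with a limit of 25 kb, 6.46% with 100 kb, 29.1% with only Ptf1a peaks of score 100 or more, and 12.1% with only Myc peaks of score 100 or more. It stayed between 14.3 and 14.5% with midpoints, with X added and with Myc peaks at most 1 kb apart merged. The median score was 68.2 with a limit of 100 kb. The median width was 1035 bp with only Myc peaks of score 100 or more. The share with no Myc neighbour was 89.7% with a limit of 100 kb, 70.6% with neighbours counted within 50 kb, 95.7% with only Myc peaks of score 100 or more and 82.4% with only such Ptf1a peaks. The 50 kb neighbour range and the Myc score filter also change these values for the whole Myc list. The background was not computed under them, so the shift in width or neighbour share is not particular to distant peaks. Distant Myc peaks per Mb numbered 0.693 with a limit of 25 kb, 0.263 with 100 kb, 0.899 in stretches up to 1000 kb long and 0.114 with only Myc peaks of score 100 or more. The share with a score of 100 or more stayed between 22.9 and 27.6%. The alternatives for motifs and genes were not run. Leaving out replicates was not possible either. No paired analysis was possible because there are no replicates.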

Other observations

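The widest distant Myc peak, singled out after its values were seen, lay on chromosome 1 at 90172243 to 90177557. It was 5315 bp wide and scored 75.83, with Ptf1a peaks of score 815.12 and 297.01 at its left and right. The second widest was the 2944 bp peak on chromosome 2 that scored 480.15. The third, on chromosome 15 at 61818898 to 61821717, was 2820 bp wide and scored 52.7. Distant peaks of 1011 bp or more had a median score of 133, so the first of these peaks lay below it and the second above. Input libraries were not set against these sites here.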
